A study of Mus musculus with 48 samples.

Results

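The basement membrane gene group described here holds 30 genes that encode laminin chains, collagen IV chains and the proteins that link, coat or bind them, out of 22180 mouse genes measured with a probe set of their own. The rule lists them by name and uses no measured value. They are 5 laminin alpha chains, 5 laminin beta and gamma chains, 6 collagen IV chains, 4 linkers and heparan sulfate proteoglycans, 2 multiplexins, 4 genes of the Fraser complex and nephronectin, and 4 other partners. All 30 passed the filter on low signal and are among the 15337 genes tested, and each is represented by its brightest probe set, which was the sole probe set for 29 of them.

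Aortas came from 3 knockout models of the elastic fibre, each with its own wild type (WT). The Eln knockout (KO) lacks elastin and the Efemp2 KO lacks fibulin-4, both on C57BL/6, and the Lox KO lacks lysyl oxidase, on B6 albino. Ascending aorta (AA) and descending aorta (DA) were taken before birth on day 17.5 (E17.5) and after it on day 1 (P1), which gave 24 groups of 2 arrays (48 in all). Each array held RNA of 8 pooled aortas, so p-values measure the spread between pools and not between animals. Beyond gene, strain, place and stage, the labels used here give no detail of the alleles. Values are log2 array signals, and a difference is KO less WT, in log2 units, unless another order is named. KO and its own WT at 1 location and stage make a pair. A gene rose or fell where limma's Benjamini-Hochberg adjusted p over all tested genes was under 0.05, and errors are standard errors. The number of arrays limits the precision, and in whole aorta fewer cells of a type and less RNA per cell cannot be told apart.

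Basement membranes are thin sheets of matrix that lie under the endothelium and surround each smooth muscle cell of the aorta. Laminin trimers of an alpha, a beta and a gamma chain polymerise on the cell surface, where integrins and dystroglycan bind them. Collagen IV forms a second, cross-linked network, and nidogens and perlecan join both sheets.

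The labels were checked on the deleted genes first. Eln signal was 4.23 to 5.56 in the Eln KO arrays and 9.20 to 11.91 in their WT (-6.12 ± 0.22, adjusted p = 2.5e-19). Lox signal was 6.26 to 8.71 in the Lox KO arrays and 9.55 to 11.48 in their WT (-2.66 ± 0.16, adjusted p = 1.5e-12). No probe set of the annotation used here carries the symbol Efemp2 alone, so that knockout was not checked. The aorta's own markers were present, with 8 of 8 smooth muscle, 10 of 10 endothelial and 6 of 6 fibroblast genes at or above the filter in every WT group. So were 4 of 5 pericyte, 3 of 6 skeletal and heart muscle, 3 of 5 mesothelial and 3 of 6 macrophage markers. The same held for 2 of 6 fat, 2 of 5 epithelial and 1 of 3 Schwann markers. Of the epithelial markers 1 reached it in no WT group. Replicate arrays correlated with a median r of 0.970 over genes and a lowest of 0.875. Eln itself was low in replicate 1 of 2 WT groups, Eln WT DA P1 (9.20, replicate 2 at 11.65) and Efemp2 WT AA E17.5 (9.69, replicate 2 at 11.70). Less the gap over all genes, these low-Eln arrays were below their replicate in 23 and 22 of the 30 members. In the other groups replicate 1 was the lower in 6 (Efemp2 KO AA P1) to 20 (as in Eln WT AA E17.5) of the 30. Low counts, such as that 6 and the 8 of Lox WT AA E17.5, mean that replicate 2 was the lower in most members. Imbalances of like size thus occurred without a low-Eln array. The members' median gap, replicate 1 less 2, was -0.17 in Eln WT DA P1, -0.32 in Efemp2 WT AA E17.5 and 0.22 in Lox WT AA E17.5. The smooth muscle markers of the low-Eln arrays were also below those of their replicate. Their list means were 8.45 and 9.16 for replicates 1 and 2 of the Eln group, then 9.15 and 9.70 for the Efemp2 group. Among the Eln and Efemp2 arrays, 4 had a raised median signal of their unnamed probe sets, at 4.35 to 4.37 against 3.53 to 4.14 in the other 28. They are both arrays of Eln WT DA P1, the low-Eln one included, and replicate 2 of Efemp2 WT AA P1 and of Efemp2 WT DA P1. The 8 Lox P1 arrays ran from 4.22 to 4.74 on that measure. Results that rest on these arrays are given with and without them.

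Collagen IV genes lie in head-to-head pairs on opposite strands, and the start regions of 2 pairs are shown because their members are set side by side in the results. In the RefSeq table (GRCm38.p6), the starts of Col4a1 and Col4a2 lay 21 bases apart on opposite strands, and their windows of 300 bases shared 78 bases. The starts of Col4a6 and Col4a5 lay 1343 bases apart. The Col4a1 window is chr8:11312777-11313076 on the minus strand, Col4a2 is chr8:11312555-11312854 on the plus strand, Col4a5 is chrX:141475169-141475468 on the plus strand and Col4a6 is chrX:141474027-141474326 on the minus strand. Each runs 5′ to 3′ from 250 bases before to 50 bases after the start. Capitals mark GGGCGG, the GC box, and CCAAT, the CCAAT box, on either strand.
Col4a1: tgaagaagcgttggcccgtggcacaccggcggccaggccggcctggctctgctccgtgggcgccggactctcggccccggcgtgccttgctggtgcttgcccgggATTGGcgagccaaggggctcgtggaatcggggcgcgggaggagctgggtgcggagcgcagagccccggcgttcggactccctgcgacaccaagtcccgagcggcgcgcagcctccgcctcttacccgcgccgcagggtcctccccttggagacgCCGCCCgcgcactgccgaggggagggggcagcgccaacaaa
Col4a2: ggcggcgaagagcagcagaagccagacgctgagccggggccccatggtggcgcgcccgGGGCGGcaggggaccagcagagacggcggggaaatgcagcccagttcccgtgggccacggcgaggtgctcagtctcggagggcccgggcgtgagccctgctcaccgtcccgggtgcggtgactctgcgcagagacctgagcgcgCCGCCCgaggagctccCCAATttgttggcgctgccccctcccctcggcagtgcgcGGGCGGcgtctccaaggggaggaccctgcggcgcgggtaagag
Col4a5: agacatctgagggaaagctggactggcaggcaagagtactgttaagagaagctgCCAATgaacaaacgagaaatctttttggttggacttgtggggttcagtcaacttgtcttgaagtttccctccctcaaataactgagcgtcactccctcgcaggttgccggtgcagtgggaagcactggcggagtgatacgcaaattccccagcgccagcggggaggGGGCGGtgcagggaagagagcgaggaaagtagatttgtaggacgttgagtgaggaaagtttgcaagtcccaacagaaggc
Col4a6: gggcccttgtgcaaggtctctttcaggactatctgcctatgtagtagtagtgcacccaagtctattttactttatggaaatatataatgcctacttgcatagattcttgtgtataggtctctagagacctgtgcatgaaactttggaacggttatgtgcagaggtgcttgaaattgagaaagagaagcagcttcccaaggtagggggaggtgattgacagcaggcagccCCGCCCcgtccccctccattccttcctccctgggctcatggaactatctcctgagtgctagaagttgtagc
Col4a2 held 3 GC boxes and 1 CCAAT box, Col4a1 and Col4a5 held 1 of each, and Col4a6 held 1 GC box and 0 CCAAT boxes. TGANTCA, an AP-1 type motif, was in 0 of these 4 windows. GC content was 74.0% for Col4a1 and 73.7% for Col4a2, against 52.7% for Col4a5 and 48.3% for Col4a6. Of all 32851 windows of this length in the table, 35.7% held GGGCGG, 37.4% CCAAT and 7.81% TGANTCA. The 22 members with a window had 29 windows, of which 17, 10 and 1 did. A match is a description of these letters and not of a bound site.

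In these fits the largest number of basement membrane genes rose in the Eln KO, though 0 members passed in the test of Efemp2 against Eln. In the mean over its 4 pairs, 6 of 30 members rose in the Eln KO (Lama1, Lamb3, Lamc1, Lamc3, Nid2 and Dag1) and 0 fell, where 2.74% of all tested genes rose and 0.541% fell. In the Efemp2 KO 4 of 30 rose (Lamb1, Col4a2, Nid2 and Ntn4) and 0 fell, where 3.14% of all tested genes rose and 0.665% fell. In the Lox KO 0 rose and Npnt fell, where 0.561% of all tested genes rose and 1% fell. Nid2 was the sole member that rose in 2 models. The median of all tested genes was 0.055 in Eln, 0.037 in Efemp2 and -0.088 in Lox. Less that median, the members' median was 0.19 in Eln with 19 of 30 above 0, 0.051 in Efemp2 with 17 above 0, and -0.0086 in Lox with 14 above 0. At an unadjusted p under 0.05 the members numbered 15, 10 and 7. Leaving out the 4 arrays of raised signal also takes away the whole Eln DA P1 pair, and then 2 members (Lama1 and Nid2) rose in the Eln KO and 0 in the Efemp2 KO. Without the 2 arrays of low Eln, 1 rose in the Efemp2 KO. With 1 array left out the count was 4 to 12 in Eln, 12 without Eln WT DA P1 replicate 2, and 1 to 9 in Efemp2, 9 without Efemp2 WT AA E17.5 replicate 2. The number of all tested genes called changed with the arrays left out as well, so these counts do not set the members apart from all genes. Markers moved with the Eln mean too. In it 3 of 6 fat markers (Pparg, Fabp4 and Cd36), 3 of 6 fibroblast markers (Dcn, Lum and Dpt) and Emcn, 1 of 10 endothelial markers, fell. Smtn of smooth muscle, Rgs5 of pericytes, Pi16 of fibroblasts and Krt18 of epithelium rose, and the list medians less all genes were -0.57 for fat and -0.34 for fibroblasts. The part of these markers was not tested.

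**Figure D1:**
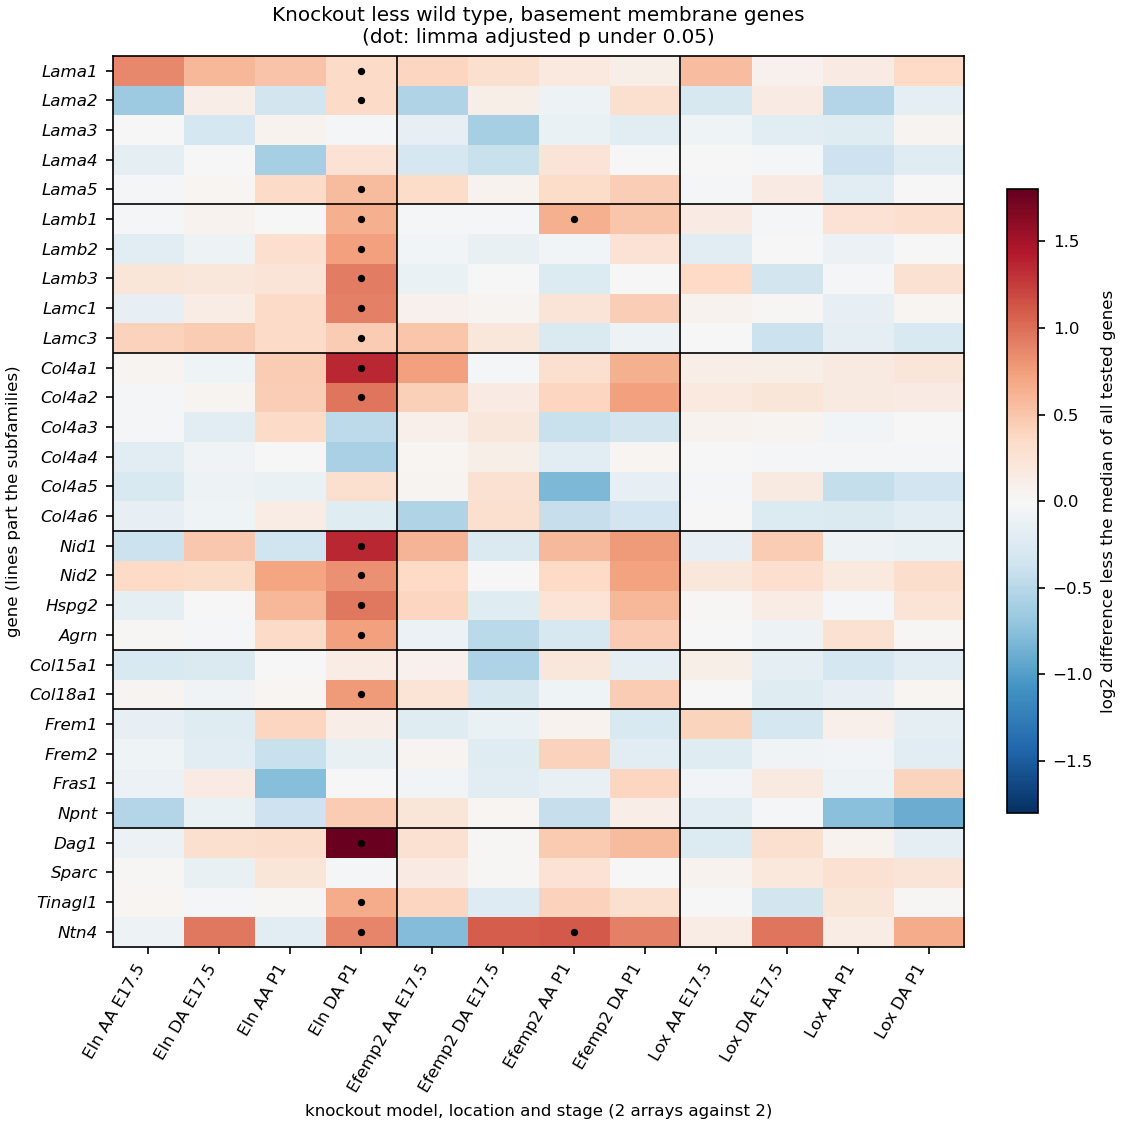
Colour gives KO less WT in log2 units, less the median of all tested genes, for the 30 members (rows, by subfamily) in the 12 pairs (columns), and a dot marks an adjusted p under 0.05 for the difference before that median is taken off. The Eln DA P1 column holds 18 dots and Efemp2 AA P1 holds 2, Lama1 is above 0 in all 12 columns, and Nid2 in 11.

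Of the 5 laminin alpha chains, which carry the receptor-binding end of the trimer, Lama1 rose in the Eln KO and the other 4 passed in no model's mean. Lama1 encodes the alpha chain of early embryonic and epithelial laminin. Its signal over the 8 arrays of each genotype ran from 4.23 through a median of 4.56 to 4.82 in Eln WT, and from 5.05 through 5.17 to 5.42 in Eln KO. Every Eln KO array lay above every Eln WT array, also within each of the 4 pairs. By pair, the WT and KO arrays were 4.23 and 4.42 against 5.16 and 5.13 in AA at E17.5, and 4.82 and 4.55 against 5.18 and 5.42 in DA at E17.5. At P1 they were 4.72 and 4.80 against 5.20 and 5.38 in AA, and 4.41 and 4.58 against 5.16 and 5.05 in DA. The mean difference was 0.65 ± 0.10 (adjusted p = 9.02e-05, 8 arrays a genotype), and 0.66 without the 4 arrays of raised signal. Lama1 was a dim gene, and it reached the filter of 4.94 in 9 of 24 groups. These were the Eln KO groups, Efemp2 KO AA P1 and the Lox P1 groups. No Eln WT group reached it, the highest being AA P1 with a mean of 4.76.

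In the Efemp2 KO Lama1 ran from 4.72 to 5.23 against 4.48 to 4.91 in WT, which overlap, and its mean difference of 0.27 ± 0.10 did not pass (adjusted p = 0.137). In the Lox KO the difference was 0.20 ± 0.10 (adjusted p = 0.357). Over all 12 pairs Lama1 was above the median of all genes in 12, by 0.075 to 0.87. The Lama1 effects of the 3 models were not shown to differ, since no member passed in Efemp2 against Eln or in Lox against Efemp2, and Lox against Eln named another gene.

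Lama2, the alpha chain of muscle laminin, differed by -0.066 in Eln and -0.025 in Efemp2, and by -0.29 ± 0.11 in Lox (adjusted p = 0.194). Lama3, of epithelial laminin, was below the median of all genes in 9 of 12 pairs and Lama4, the endothelial and smooth muscle alpha chain, in 10 of 12, with no pair past the threshold for either. Lama5, the broadly expressed alpha chain of mature vessels, differed by 0.29 in Eln (adjusted p = 0.149) and 0.33 in Efemp2 (adjusted p = 0.0927).

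Of the 5 beta and gamma chains, 3 rose in the Eln KO, 1 in the Efemp2 KO and 0 in the Lox KO, with 1 at an unadjusted p under 0.05 in Lox. In Eln KO all 5 were above the median of all genes, with a list median of 0.32 above it. Lamb3, the beta chain of epithelial laminin, ran from 4.39 through 5.07 to 5.43 in Eln WT and from 4.95 through 5.41 to 5.68 in Eln KO (0.46 ± 0.11, adjusted p = 0.00889). The ranges overlap, and the gap was widest in DA at P1, with 4.49 and 4.39 in WT and 5.68 and 5.57 in KO. In AA at P1 the values were 5.09 and 4.66 in WT and 5.29 and 4.95 in KO. Without the 4 arrays of raised signal, which leaves out the DA P1 pair, the Lamb3 difference was 0.21 and did not pass (adjusted p = 0.508).

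Lamc3, a gamma chain of limited distribution, ran from 4.57 through 5.27 to 6.02 in Eln WT and from 5.16 through 5.83 to 6.46 in Eln KO (0.48 ± 0.12, adjusted p = 0.0127). KO was above WT in all 4 pairs, and the arrays of KO and WT did not overlap within any of them. At E17.5 the WT and KO arrays were 4.95 and 5.29 against 5.60 and 5.35 in AA, and 4.57 and 4.89 against 5.16 and 5.25 in DA. At P1 they were 6.02 and 5.92 against 6.46 and 6.21 in AA, and 5.25 and 5.51 against 6.13 and 6.06 in DA. Lamc3 was also the sole member whose effect differed between models. In Lox it ran from 4.23 through 5.22 to 6.53 in WT and from 3.79 through 5.04 to 5.85 in KO, and Lox less Eln was -0.77 ± 0.16, or -0.63 less the median of all genes of -0.14 (adjusted p = 0.0237). There 0.482% of all tested genes were lower. Model, strain and array set cannot be told apart in that comparison. In Efemp2 less Eln and Lox less Efemp2, 0 members passed, with 4 and 8 at an unadjusted p under 0.05, and 0.554% and 0.0261% of all tested genes passed. Without Eln WT E17.5 replicate 1 of either AA or DA, Lamc3 missed the threshold in the Eln mean, at 0.44 for each.

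Lamc1, the gamma chain of most laminins, ran from 7.48 through 8.95 to 9.45 in Eln WT and from 8.65 through 9.21 to 9.44 in Eln KO (0.37 ± 0.11, adjusted p = 0.047). Most of that gap lay in DA at P1, where WT was 7.48 and 8.04 and KO 8.65 and 9.23. In AA at E17.5 WT was 9.42 and 9.45 and KO 9.19 and 9.28, the other way round. The call was lost in 20 of 26 alternatives, among them 13 of the 16 that leave out 1 array, with values of 0.30 to 0.45. It was 0.10 without the 4 arrays of raised signal. Lamb1, the most common beta chain in the embryo, rose in the Efemp2 KO, from 7.28 to 8.86 in WT with a median of 8.15, to 7.99 to 8.76 in KO with a median of 8.45 (0.30 ± 0.08, adjusted p = 0.0309). The increase lay at P1, as described with the stages, and the call was lost in 15 of 26 alternatives. Lamb2, the beta chain that follows Lamb1 in maturing vessels, passed in no model's mean, at 0.25, 0.041 and -0.16.

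Among the 6 collagen IV chains Col4a2 rose in the Efemp2 KO and no other mean passed, with list medians less all genes of -0.056 in both Eln and Efemp2. Col4a1 and Col4a2 form the trimer found in nearly every basement membrane. Col4a2 ran from 6.22 to 7.57 in Efemp2 WT and from 6.98 to 7.75 in Efemp2 KO, where the median was 7.47 (0.46 ± 0.13, adjusted p = 0.0346). At E17.5 the WT arrays were 6.22 and 7.07 in AA, then 7.20 and 7.32 in DA. At P1 they were 7.57 and 6.68 in AA, then 6.93 and 6.88 in DA. The KO arrays were 6.98 and 7.12, 7.38 and 7.41, 7.64 and 7.54, and 7.75 and 7.72 in the same order. KO and WT overlapped in both AA pairs and did not overlap in the DA pairs. The lowest WT array is the Efemp2 WT AA E17.5 array of low Eln, and without it the value was 0.35 (adjusted p = 0.13). The call was lost in 18 of 26 alternatives.

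Col4a1 differed by 0.45 ± 0.17 in Efemp2 (adjusted p = 0.163) and by 0.51 ± 0.17 in Eln (adjusted p = 0.107), and Col4a2 by 0.43 ± 0.13 in Eln (adjusted p = 0.0593). In Lox the values were 0.065 for Col4a1 and 0.090 for Col4a2. Less the median of all genes, Col4a2 was above 0 in 11 of 12 pairs, from -0.021 to 0.97, and Col4a1 in 10, from -0.082 to 1.36. The 4 other chains, Col4a3 and Col4a4 of the kidney filter and Col4a5 and Col4a6 of smooth muscle and epithelium, passed in no single KO pair and no mean. Of these, Col4a6 was below the median of all genes in 10 of 12 pairs and Col4a4 in 9. Col4a3 and Col4a4 were dim and reached the filter in 4 and 2 of 24 groups.

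**Figure D2:**
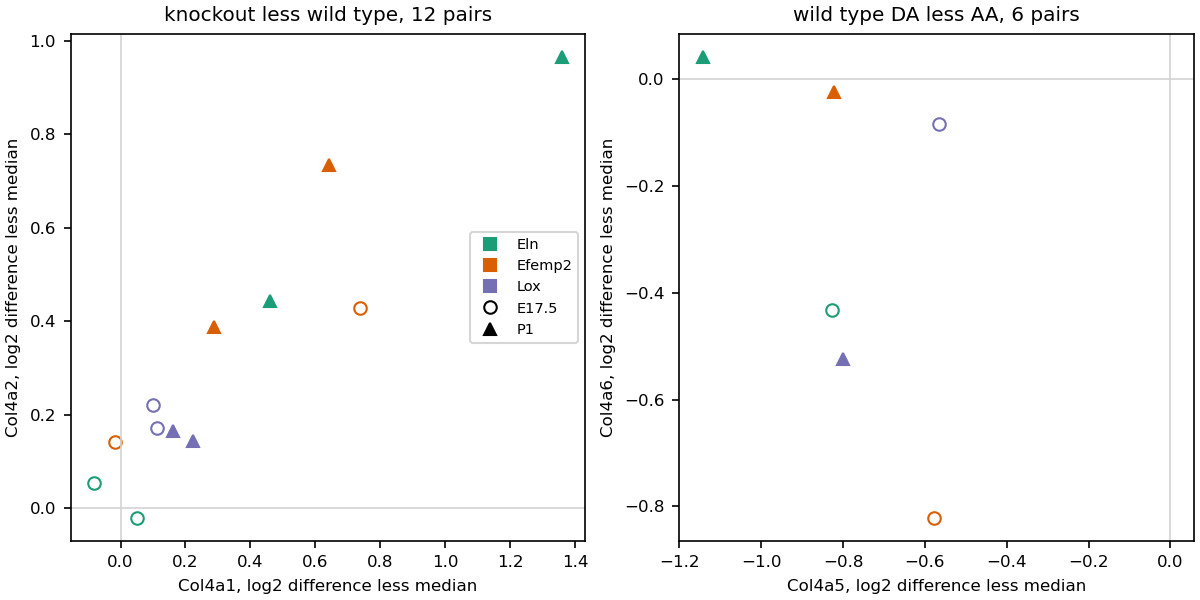
Left, KO less WT of Col4a2 against that of Col4a1, each less the median of all tested genes, for the 12 pairs. Right, WT DA less AA of Col4a6 against Col4a5 for the 6 WT pairs. Axes are in log2 units and colours give the model. The point farthest out on the left is Eln DA P1, at 1.36 for Col4a1 and 0.97 for Col4a2, and on the right Col4a5 is below 0 in all 6 pairs.

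Of the 4 linkers and proteoglycans, Nid2 rose in the Eln and the Efemp2 KO, and Nid1, Hspg2 and Agrn passed in no model's mean. Nidogens bridge laminin and collagen IV. Nid2 ran from 7.61 through 8.54 to 8.95 in Eln WT and from 8.74 through 8.97 to 9.37 in Eln KO (0.62 ± 0.11, adjusted p = 0.000663). At E17.5 the WT arrays were 8.61 and 8.95 in AA, then 8.71 and 8.56 in DA. At P1 they were 8.51 and 8.39 in AA, then 7.61 and 7.85 in DA. The KO arrays, in the same order, were 8.95 and 9.22, 9.11 and 8.86, 8.99 and 9.37, and 8.74 and 8.90. KO lay above WT in all 4 pairs, though in AA at E17.5 the lower KO array and the higher WT array are the same as rounded. The value was 0.46 (adjusted p = 0.047) without the 4 arrays of raised signal. Of 26 alternatives, 0 lost the call.

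In the Efemp2 model Nid2 ran from 7.87 through 8.63 to 9.44 in WT and from 8.83 through 9.11 to 9.60 in KO (0.40 ± 0.11, adjusted p = 0.0377). At P1 the WT arrays were 8.70 and 8.47 in AA and 8.41 and 7.87 in DA, all below the KO arrays of 9.07 and 8.97 in AA and 9.10 and 8.83 in DA. At E17.5 WT and KO overlapped, with 8.57 and 9.32 against 9.24 and 9.32 in AA and 9.29 and 9.44 against 9.11 and 9.60 in DA. This call was lost in 16 of 26 alternatives, with 0.30 left when Efemp2 WT AA E17.5 replicate 1 was left out. In Lox the ranges were 7.75 to 9.77 in WT and 8.18 to 9.93 in KO, and the difference of 0.17 ± 0.11 did not pass (adjusted p = 0.506).

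Hspg2 encodes perlecan, the large heparan sulfate proteoglycan of the vessel wall, and Agrn encodes agrin, which binds dystroglycan. Their mean differences were 0.41 and 0.34 in Eln, 0.29 and -0.068 in Efemp2, and 0.012 and -0.029 in Lox. Nid1 differed by 0.34, 0.46 and -0.059, with the widest replicate gap of the group (2.28 between the arrays of 1 group). The multiplexins Col15a1 and Col18a1, collagens that carry heparan or chondroitin sulfate chains, passed in no mean, and lay between -0.23 and 0.26.

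The Fraser complex proteins Frem1, Frem2 and Fras1 anchor epithelia to the matrix, and they passed in no KO mean, at values of -0.21 to 0.099. Frem2 was below the median of all genes in 10 of 12 KO pairs. Npnt, nephronectin, a basement membrane ligand of an RGD-binding integrin, fell in the Lox KO. It ran from 4.44 through 6.10 to 7.82 in Lox WT and from 4.62 through 5.47 to 7.18 in Lox KO (-0.55 ± 0.14, adjusted p = 0.0389). At P1 WT was 7.59 and 7.82 in AA and 7.55 and 7.08 in DA, all but the last above every KO array, which were 6.32 and 7.18 in AA and 6.45 and 6.05 in DA. At E17.5 WT was 5.02 and 4.88 in AA and 4.44 and 5.12 in DA, and KO was 4.89 and 4.62 and 4.87 and 4.73, with overlap in both. Less the median of all genes the pairs were -0.75 and -0.89 at P1 and -0.19 and -0.015 at E17.5, and the stage difference did not pass in Lox (0 members, with 4 at an unadjusted p under 0.05, and 0.0978% of all tested genes). The Npnt call was lost in 13 of 26 alternatives, 10 of them leaving out 1 of 16 arrays, with values of -0.65 to -0.44. The fat markers, 6 of 6 below the median of all genes in Lox KO, had a median of -0.53 with 0 called, and their part in the result was not tested.

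Of the other partners, Dag1 rose in the Eln KO and Ntn4 in the Efemp2 KO, while Sparc, a collagen-binding chaperone of the matrix, and Tinagl1, a laminin-binding matrix protein, passed in no mean. Dag1 encodes both dystroglycan subunits, the non-integrin laminin receptor. It ran from 5.84 through 7.13 to 7.84 in Eln WT and from 7.05 through 7.67 to 8.44 in Eln KO (0.64 ± 0.13, adjusted p = 0.00227). In DA at P1 WT was 5.84 and 6.46 and KO 8.36 and 8.03. In the other pairs WT and KO lay close, with 7.74 and 7.84 against 7.82 and 8.44 in AA at P1, 7.06 and 7.45 against 7.05 and 7.16 in AA at E17.5, and 7.09 and 7.18 against 7.53 and 7.35 in DA at E17.5. Without the 4 arrays of raised signal, and so without DA at P1, the difference was 0.16 (adjusted p = 0.766).

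Ntn4, netrin-4, binds laminin gamma chains and opens laminin networks. In the Efemp2 model it ran from 4.46 through 4.93 to 6.51 in WT and from 4.90 through 5.76 to 6.20 in KO (0.61 ± 0.14, adjusted p = 0.00569). The DA arrays of WT were 4.83 and 4.88 before birth and 4.97 and 4.48 after it, below every DA array of KO, at 6.20 and 5.67 and at 5.60 and 5.85. In AA the values were 6.51 and 5.29 in WT and 4.90 and 5.29 in KO at E17.5, and 5.11 and 4.46 in WT and 6.00 and 5.92 in KO at P1. The mean of Efemp2 thus joined 3 pairs of higher KO with AA at E17.5, where KO was not higher. The WT value of 6.51 there is from the array of low Eln. The call for the Efemp2 mean was lost in 3 of 26 alternatives, and with 1 array left out the values were 0.46 to 0.76. In Eln the mean was 0.45 ± 0.14 (adjusted p = 0.0593) and in Lox 0.39 ± 0.14 (adjusted p = 0.153).

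Location split the Ntn4 effect in the Eln KO. The Eln DA arrays of WT were 4.63 and 4.53 before birth and 4.60 and 4.36 after it, and the KO arrays 5.46 and 5.65 and then 5.45 and 5.81, with no overlap. In Eln AA the WT arrays were 5.13 and 5.20 and then 5.49 and 5.50, and the KO arrays 4.91 and 5.14 and then 5.28 and 5.37. DA less AA of the KO effect was 1.22 ± 0.27, or 1.04 less the median of all genes of 0.18 (adjusted p = 0.0157). Less the median of all genes, the 6 DA pairs of the 3 models ran from 0.66 to 1.09, and the 6 AA pairs, E17.5 then P1 of Eln, Efemp2 and Lox, were -0.090, -0.19, -0.78, 1.10, 0.14 and 0.13. The same location difference was 0.86 ± 0.27 in Efemp2 (adjusted p = 0.515) and 0.71 ± 0.27 in Lox, and neither passed. The Lox DA arrays of WT were 3.87 and 4.30 before birth and 6.09 and 5.78 after it, and KO was 5.09 and 5.06 and then 6.58 and 6.27. No array of WT reached its KO in these DA pairs.

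**Figure D3:**
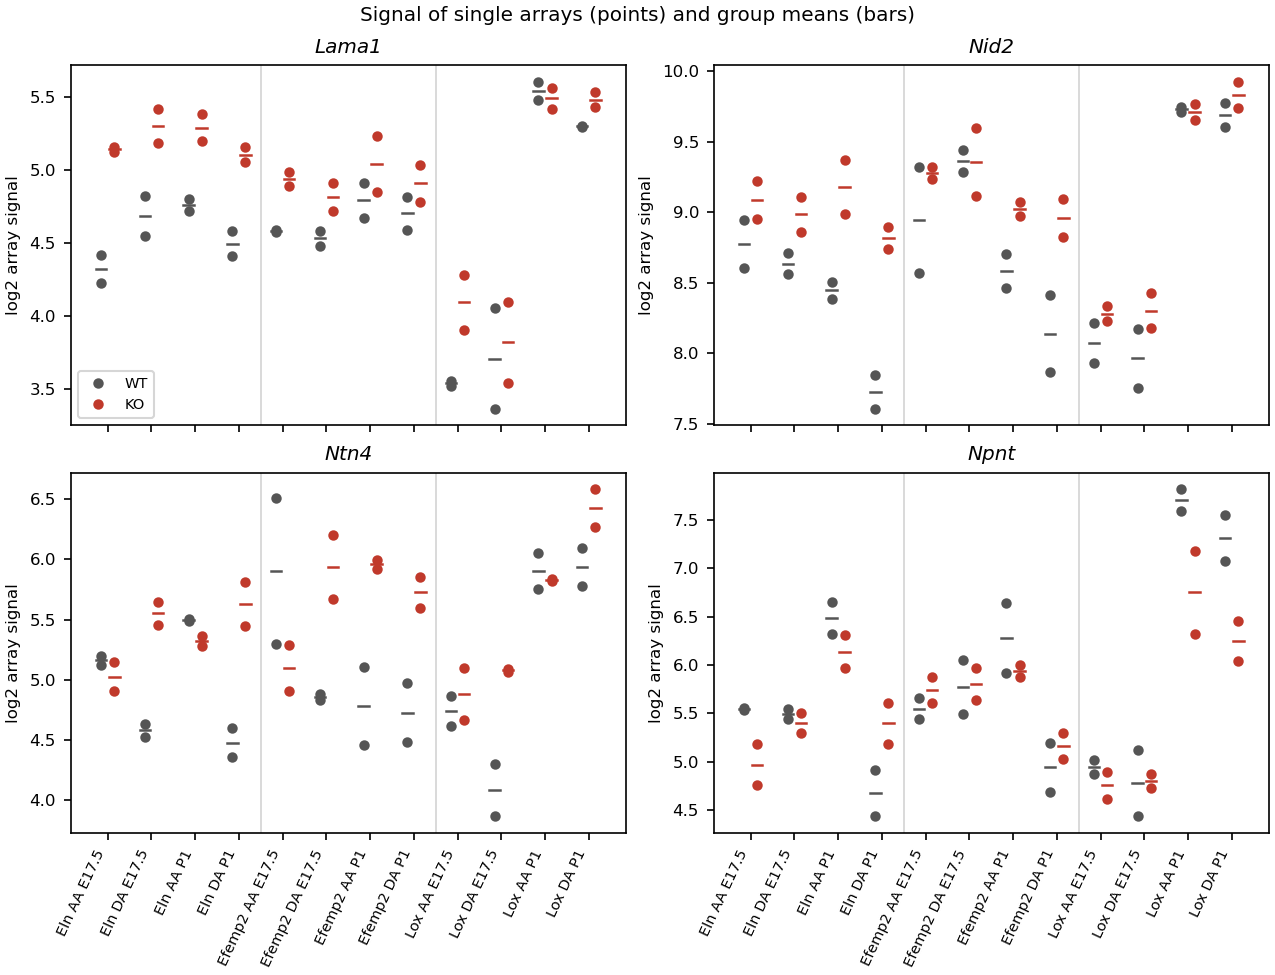
Points are single arrays (log2 signal) of Lama1, Nid2, Ntn4 and Npnt by model, location and stage, with WT and KO side by side. The 8 Eln KO arrays of Lama1 lie at 5.05 to 5.42, all above the WT arrays at 4.23 to 4.82, and Ntn4 in DA is higher in KO than in WT in all 6 pairs.

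Besides Ntn4, the KO effect differed between DA and AA in the Eln model for Lama2 and Dag1, and for 0 members in the Efemp2 and Lox models. In the Eln comparison 3.13% of all tested genes had a higher effect in DA, and in the other models 0%, with 4 and 1 members at an unadjusted p under 0.05. The difference was 0.89 ± 0.22 for Lama2, or 0.71 less the median of all genes (adjusted p = 0.0247), and 1.08 ± 0.25 for Dag1, or 0.90 less that median (adjusted p = 0.0192). None of the 3 members passed without the 4 arrays of raised signal, with 0.66 for Lama2, 0.21 for Dag1 and 1.13 for Ntn4. That fit has no DA P1 pair, so it sets DA at E17.5 against AA of both stages, which is another measure than the full difference. Without Eln KO AA P1 replicate 1, or without Eln KO AA E17.5 replicate 1, 0 passed as well.

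The KO effect differed between P1 and E17.5 for Dag1 in Eln, for Lamb1 in Efemp2 and for 0 members in Lox. Dag1 gave 1.11 ± 0.25, or 0.98 less the median of all genes of 0.14 (adjusted p = 0.0377), where 0.443% of all tested genes had a higher effect at P1. Lamb1 gave 0.70 ± 0.17, or 0.60 less the median of 0.10 (adjusted p = 0.0361), where 1.15% did. At E17.5 the Efemp2 WT arrays of Lamb1 were 8.56 and 8.86 in AA and 8.61 and 8.61 in DA, and the KO arrays 8.70 and 8.61 and then 8.39 and 8.76. At P1 they were 7.73 and 7.60 in AA and 7.64 and 7.28 in DA against 8.51 and 8.26 and then 8.12 and 7.99 in KO. KO and WT overlapped at E17.5 and did not at P1. Each of these calls was lost in more than 15 alternatives, 17 of 26 for Dag1 and 16 of 26 for Lamb1.

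Among the 12 single pairs, Eln DA P1 held 18 of the 20 calls of members and Efemp2 AA P1 the other two. In Eln DA P1 25.5% of all tested genes were called and 19.8% rose, and the members' count stands on that ground. The 18 that rose were Lama1, Lama2 and Lama5, all 5 beta and gamma chains, Col4a1 and Col4a2, all 4 linkers and proteoglycans, Col18a1, and Dag1, Tinagl1 and Ntn4. Less the median of all genes of 0.27, Dag1 was at 1.78 (adjusted p = 4.58e-06), Col4a1 and Nid1 at 1.36, Col4a2 at 0.97 and Hspg2 at 0.95. The members' median was 0.51 with 24 of 30 above 0. In Efemp2 AA P1 Lamb1 (0.72 ± 0.17) and Ntn4 (1.17 ± 0.27), both with an adjusted p of 0.0128, rose, where 3.03% of all tested genes did. Replicate 2 of Efemp2 WT AA P1 is one of the 4 arrays of raised signal, and without it Ntn4 stood at 0.85. The call in this pair was lost in 5 of 14 alternatives for Ntn4 and in 3 of 14 for Lamb1. The other 10 pairs had 0 calls of members, with 1 to 12 members at an unadjusted p under 0.05. There the share of all tested genes called was 0.124%, 0.0456% and 1.81% in Eln AA E17.5, DA E17.5 and AA P1, and 0.613%, 0.0391% and 1.55% in Efemp2 AA E17.5, DA E17.5 and DA P1. In Lox it was 0.0261% in AA E17.5, 0.013% in DA E17.5, 0.606% in AA P1 and 0.261% in DA P1.

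The calls in Eln DA P1 changed with the WT arrays used, and some changed when a KO array was left out. For Col4a1 the WT arrays were 6.80 and 8.31, and KO was 9.48 and 8.88. The lower is the array of low Eln. Without it fewer members and also fewer of all tested genes were called in the Eln pairs, and Col4a1 stood at 0.87 and did not pass. Efemp2 WT DA P1, from the same strain, place and stage, served as another wild type, a choice made after the data were seen. Its replicate 2 is itself one of the 4 arrays of raised signal. Against it 6 members rose in Eln KO DA P1 (Lamb1, Lamb3, Lamc3, Col4a2, Col18a1 and Ntn4), where 6.35% of all tested genes did, and the members' median was 0.23 less a median of all genes of 0.18. Between both wild types, Dag1 was lower in Eln WT DA P1 by 1.27 less the median of all genes and the other 29 members did not pass, where 1.12% of all tested genes were lower. In the matching AA comparison Lama4, Fras1 and Tinagl1 were higher in Eln WT AA P1, where 7.6% of all tested genes were. Endothelial markers moved with the Eln DA P1 pair, with 7 of 10 higher and a median of 0.64 less all genes (list means of 7.65 and 8.11 in KO and 7.12 and 7.01 in WT). In Eln AA P1, where 0 members passed, 2 of 10 were lower and the median was -0.61. Of the other lists in Eln DA P1, 2 of 8 smooth muscle (8.45 and 9.16 in WT, 9.38 and 9.28 in KO), 2 of 5 mesothelial (5.93 and 6.41 in WT, 6.64 and 6.90 in KO) and 2 of 5 pericyte markers were higher. The smooth muscle mean was low in the array of low Eln and not in its replicate. Their part in the result was not tested.

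**Figure D4:**
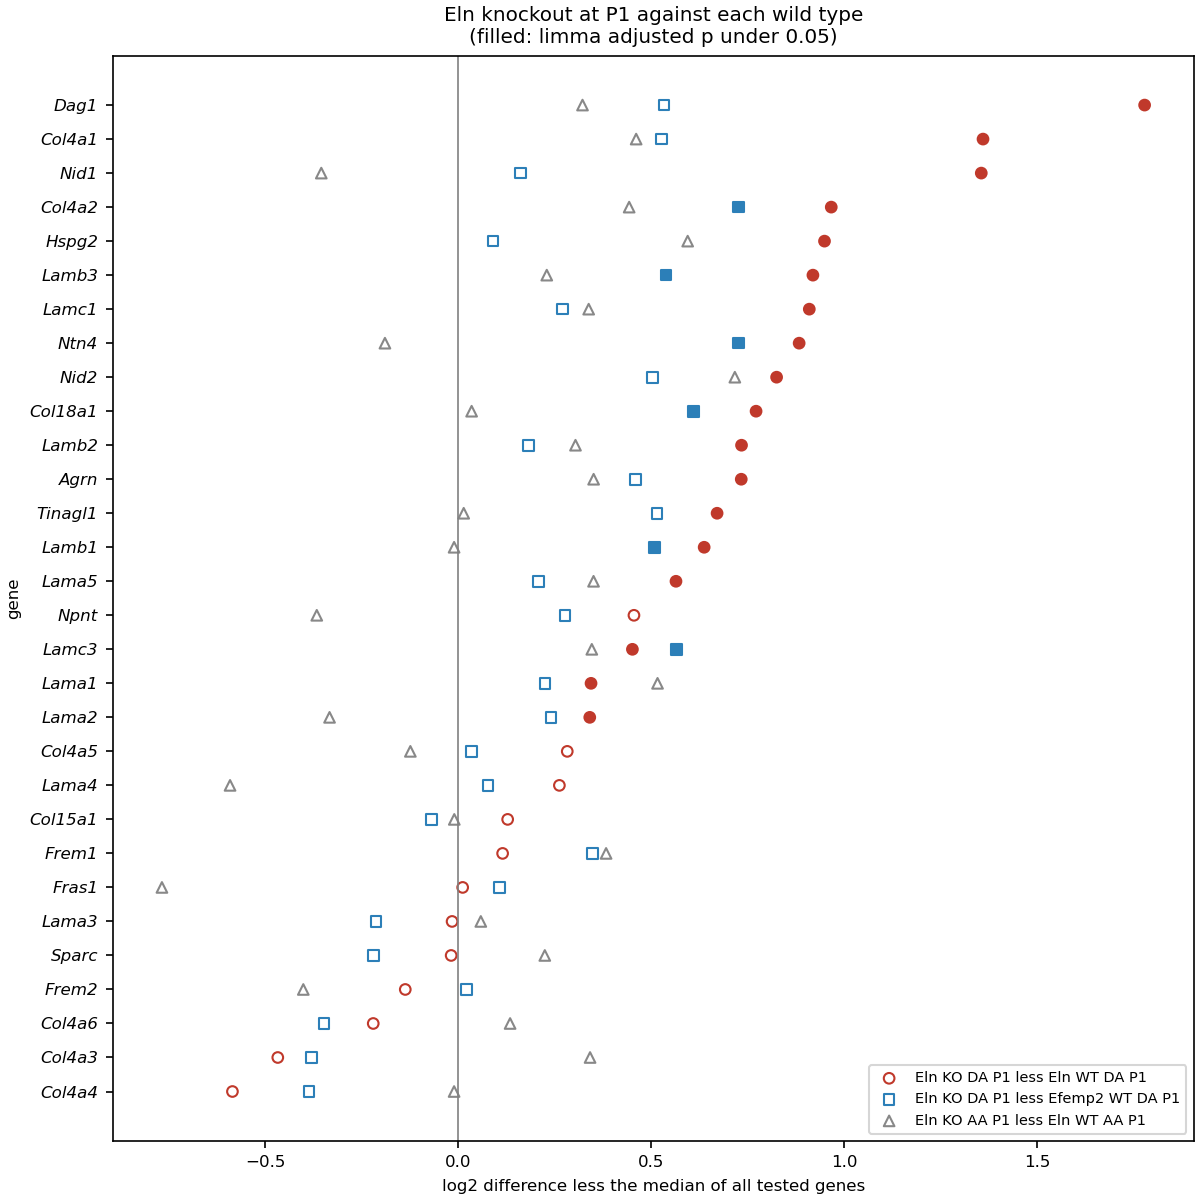
Each member's difference of Eln KO DA P1 from Eln WT DA P1 and from Efemp2 WT DA P1, and of Eln KO AA P1 from its own WT, in log2 units less the median of all tested genes, with filled points where the adjusted p is under 0.05. The filled points number 18, 6 and 0.

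In wild-type aorta, location set 10 of the 30 members apart. Over the 6 WT pairs of DA and AA (12 arrays a location), Lama3 and Frem2 were higher in DA, where 4.64% of all tested genes were, and Col4a5, Col4a6, Lama2, Lama5, Lamc1, Npnt, Tinagl1 and Ntn4 were lower, where 3.96% were. The median of all genes was -0.012. Col4a5 had the largest difference of the members, at -0.81 ± 0.11 (adjusted p = 7.18e-06). It ran from 4.62 through 6.11 to 7.02 in AA and from 3.98 through 5.19 to 6.53 in DA, and within the pairs no DA array reached an AA array except in the Efemp2 E17.5 pair, at 5.19 and 5.57 in DA and 5.53 and 6.40 in AA. Its neighbour Col4a6 ran from 3.67 through 4.94 to 5.62 in AA and from 3.74 through 4.69 to 5.19 in DA (-0.32 ± 0.09, adjusted p = 0.0182). Col4a6 was dim, at or above the filter in 6 of 24 groups, and its call was lost in 3 of 34 alternatives. Col4a1 and Col4a2 did not pass.

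Lama3 was the alpha chain higher in DA, at 3.97 through 5.05 to 6.41 in AA and 4.95 through 5.68 to 7.02 in DA (0.58 ± 0.09, adjusted p = 4.86e-05). DA was higher in all 6 pairs, by 0.35 to 0.91 less the median of all genes, for example at 5.94 and 5.78 against 5.04 and 5.10 in Eln WT at E17.5. Lama5 ran from 5.85 through 7.09 to 8.12 in AA and from 5.42 through 6.64 to 7.84 in DA (-0.49 ± 0.09, adjusted p = 0.000283). Lama2 ran from 6.86 through 7.63 to 9.40 in AA and from 6.42 through 7.26 to 9.33 in DA (-0.40 ± 0.09, adjusted p = 0.00339). Both were lower in DA in all 6 pairs, Lama5 by 0.18 to 0.78 and Lama2 by 0.27 to 0.51 less the median of all genes. The alpha chains thus split by location while the pooled ranges of all 3 overlapped.

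Frem2 ran from 3.72 through 4.65 to 5.58 in AA and from 4.16 through 4.99 to 6.12 in DA (0.48 ± 0.10, adjusted p = 0.00225), higher in DA in all 6 pairs. Ntn4 ran from 4.46 through 5.25 to 6.51 in AA and from 3.87 through 4.61 to 6.09 in DA (-0.55 ± 0.11, adjusted p = 0.00095). Npnt ran from 4.88 through 5.79 to 7.82 in AA and from 4.44 through 5.32 to 7.55 in DA (-0.59 ± 0.12, adjusted p = 0.000733). For Ntn4 the location with the lower WT signal is the one where KO was higher in all 6 pairs; both comparisons use the same WT arrays. The Npnt difference lay at P1, at -1.58, -1.35 and -0.54 less the median of all genes, against -0.042, 0.23 and -0.16 at E17.5. Tinagl1 ran from 5.46 through 7.15 to 8.20 in AA and from 5.69 through 6.56 to 8.16 in DA (-0.36 ± 0.09, adjusted p = 0.0106), and Lamc1 from 8.75 through 9.12 to 10.56 in AA and from 7.48 through 9.01 to 10.43 in DA (-0.32 ± 0.09, adjusted p = 0.0167). Without the 4 arrays of raised signal these 2 and Npnt did not pass, at -0.20, -0.12 and -0.37.

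By single WT pair, 18 members were lower in DA in Eln P1, where 22.2% of all tested genes were. Without Eln WT DA P1 replicate 1, the array of low Eln, fewer members and also fewer of all tested genes were called. Both DA arrays of that pair are of raised signal, so without the 4 arrays it has no value. Npnt alone was lower in Efemp2 P1, where 0.365% were, and 0 members passed in the other 4 pairs, which had 3 to 11 members at an unadjusted p under 0.05. In those, the share of all tested genes called was 0.176% in Eln E17.5, 1.06% in Efemp2 E17.5, 0.502% in Lox E17.5 and 0.417% in Lox P1. Marker lists moved with location too. In DA 2 of 6 fat, 3 of 10 endothelial, 2 of 6 macrophage and 1 of 8 smooth muscle markers were higher, and 3 of 8 smooth muscle and 2 of 5 mesothelial markers were lower. Of the skeletal and heart muscle list, Myh6 was higher (1.03) and Tnnt2 (-0.97) and Actn3 (-0.32) were lower. Abcc9 of pericytes was higher (0.39), and Krt18 of epithelium (-0.65) and Dpt of fibroblasts (-0.48) were lower. The median of the fat list was 0.46 less all genes, and list levels per array ran from 5.08 to 9.41. Their part in the location differences was not tested.

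**Figure D5:**
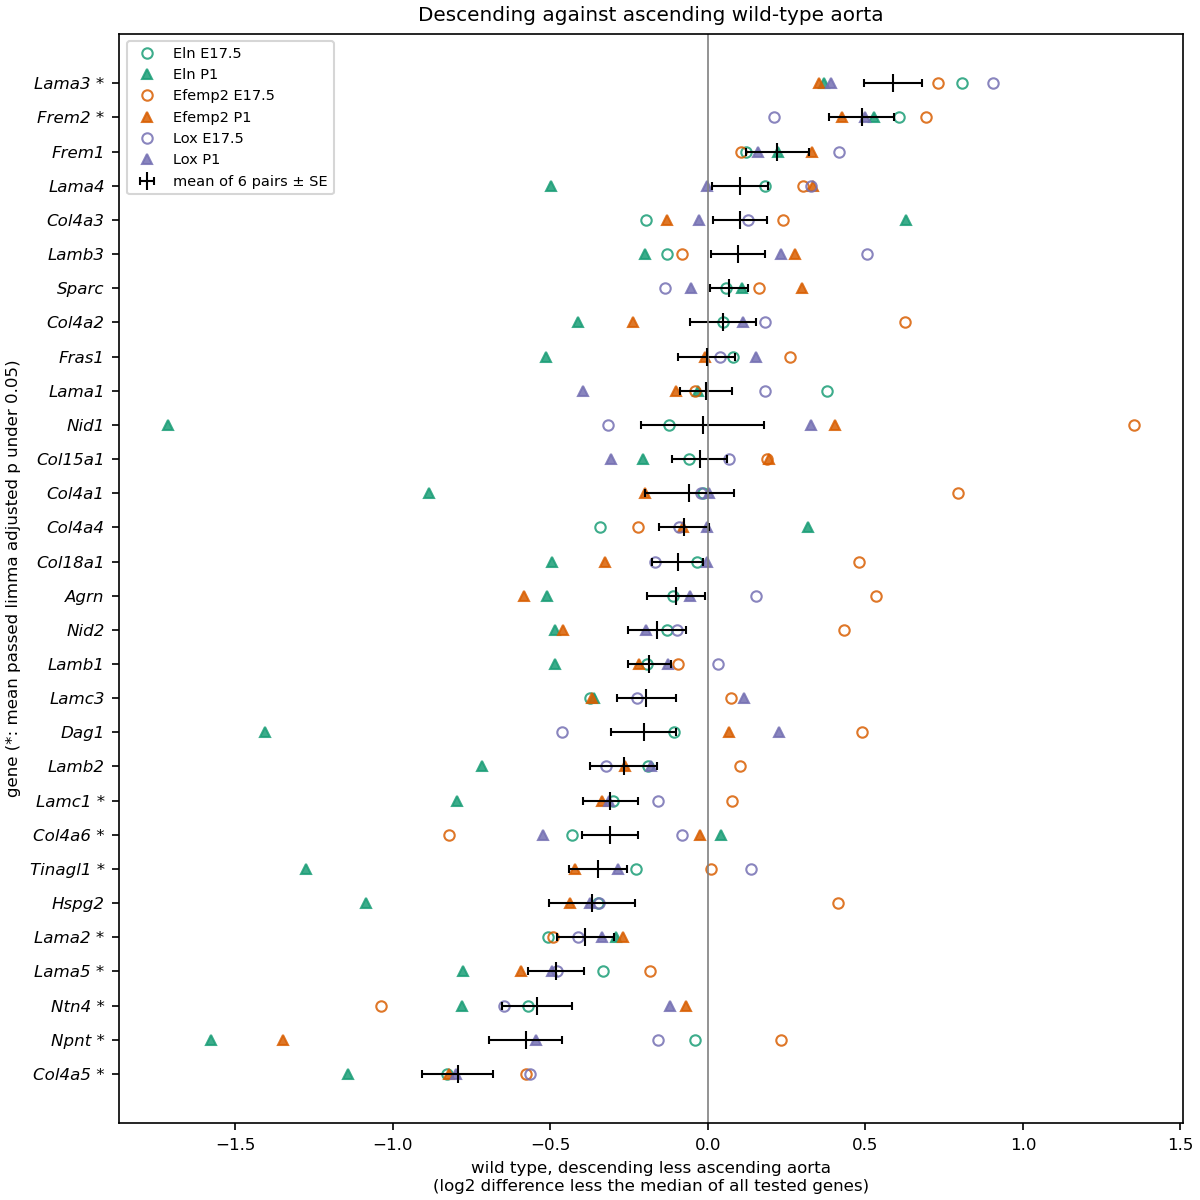
WT DA less AA of each member in log2 units, less the median of all tested genes, with a point for each of the 6 model and stage pairs and the mean ± standard error, and a star where the adjusted p of the mean is under 0.05. Lama3 and Frem2 are starred above 0 and 8 members below it, with Col4a5 farthest out at -0.79.

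Stage in wild-type aorta is given as a description, since the P1 and E17.5 arrays shared none of their lowest values, which points to separate normalization runs, though no label states one and the Lox P1 arrays share none among themselves either. Stage and such a run cannot be told apart. Each array was taken less its own median over tested genes. Lamb1 was lower at P1 in 6 of 6 comparisons, by 0.56 to 1.01, Lamc1 in 6 of 6, by 0.25 to 1.25, and Frem2 in 6 of 6, by 0.068 to 1.00. Lama5 was higher at P1 in 6 of 6, by 0.10 to 0.64, and Lamb2 in 5 of 6. Lama4, Lama3, Nid2 and Fras1 were lower in 5 of 6, and Col4a1, Col4a5 and Dag1 higher in 5 of 6.

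Among other genes of the pathway, Itga1, an alpha subunit of the collagen IV and laminin receptors, rose in Eln (0.39 ± 0.11, adjusted p = 0.0407) and in Efemp2 (0.39 ± 0.11, adjusted p = 0.0387), as 1 of 12 tested receptor genes in each, and 0 rose in Lox. In WT, Itga1, Itga2 and Itga6 were higher in DA, by 0.40, 0.53 and 0.71. Of 11 tested genes of the dystroglycan complex and its glycosylation, Pomgnt1, which extends the sugar chain that binds laminin, rose in Eln (0.39) and Sgcd, a sarcoglycan, fell in Efemp2 (-0.41). Of 11 tested genes of collagen IV processing and assembly, 4 rose in Eln, 4 rose and 1 fell in Efemp2 and 1 rose in Lox. Pxdn, the peroxidase that cross-links collagen IV, rose in Eln by 0.56. P4ha1, a prolyl hydroxylase of collagens, rose by 0.42 in Eln, 0.71 in Efemp2 and 0.52 in Lox. Colgalt1, a collagen galactosyltransferase, rose by 0.45 in Eln and 0.36 in Efemp2, and Smoc2, a matricellular basement membrane protein, by 0.67 and 0.47. Egfl7, which is also an endothelial marker, fell by 0.46 in Efemp2, where 4 of 10 endothelial markers fell and 4 of 6 macrophage markers rose, with medians of -0.48 and 0.84 less all genes. Their part in the results was not tested.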

How the data were processed

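Gene expression was measured on 48 arrays in 24 groups of 2. Per the labels, 5 ng of RNA from 8 pooled aortas was amplified with NuGEN Ovation Pico WTA for each array. The deposited values are log2 signals per probe set, made by the authors with RMA in Affymetrix Expression Console, per the submitters' processing notes. Their versions are not given in the sources used here.

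Of 41345 probe sets, 23521 carried 1 gene symbol in the platform annotation, 1814 several and 16010 none, and the probe set of highest mean stood for each of 22180 symbols. Genes with a group mean of at least 4.94, the median of single-symbol probe sets, were tested. limma 3.58.1 (R 4.3.3) fitted a mean per group to the 48 arrays together (24 residual degrees of freedom, eBayes), with Benjamini-Hochberg adjustment over 15337 genes per contrast and a threshold of 0.05. The fit was tested on simulated data. Where the median of all tested genes was beyond 0.1, differences are also given less that median.

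The values point to several normalization runs. One of the 5 lowest values was shared by 4 to 10 of 28 array pairs within each model and stage except Lox P1 (0), by 13 of 64 between Eln P1 and Efemp2 P1, and by 0 pairs otherwise. Array medians ran from 3.71 to 5.35 over these sets. Each KO and its WT lay in 1 model and stage.

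The members, lists and contrasts were chosen with earlier results of these data known. Array values are given for up to 14 members, first those past the threshold in at least 2 models, then by smallest adjusted p in a model, the WT location contrast or a stage difference. From the other pathway lists up to 4 genes each were named, by the number of models called. Another wild type for Eln DA P1 and a fit without the 2 WT arrays of low Eln were added after the data were seen. Promoter windows are from RefSeq (GRCm38.p6), and 22 of 30 members were matched by symbol.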

Additional observations from a re-analysis of the deposited data

Results flagged for a closer look

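For 6 results the KO effect differed between stages, locations or models by a test of the difference itself in limma. Dag1 differed between P1 and E17.5 in Eln by 1.11 (adjusted p = 0.0377). Lamb1 differed between P1 and E17.5 in Efemp2 by 0.70 (adjusted p = 0.0361). Between DA and AA in Eln, Lama2 differed by 0.89 (adjusted p = 0.0247), Dag1 by 1.08 (adjusted p = 0.0192) and Ntn4 by 1.22 (adjusted p = 0.0157). Lamc3 differed between Lox and Eln by -0.77 (adjusted p = 0.0237). Without the 4 arrays of raised signal Dag1 stood at 0.26 between stages and at 0.21 between locations, and Ntn4 at 1.13 between locations, and none of these 3 passed. That fit has no Eln DA P1 pair. It sets AA at P1 against both locations at E17.5, and DA at E17.5 against AA of both stages. Stage and location thus mix in these values, which are not the same measure as the full differences.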

How the results depend on the processing

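Of 47 member results, 10 kept their call under every alternative fitted for them, 37 lost it under at least 1, and 0 changed direction. Lama1 and Nid2 in Eln, and Lama2, Lama3, Lama5, Col4a5, Frem2 and Ntn4 between WT locations, lost it under none. The same held for Lamb3 and Dag1 in the Eln DA P1 pair, over 13 alternatives. Those 13 include neither a fit without the 4 arrays, which has no such pair, nor the other wild type. Against Efemp2 WT DA P1, Dag1 did not pass (limma adjusted p = 0.0732). Counts of members called changed as follows. The number of all tested genes called changed between the alternatives as well. These counts are given without that share, so they do not set the members apart from all genes. In the Eln mean (6) 2 were called without the 4 arrays of raised signal, and 4 to 12 with 1 array left out, 12 of them without Eln WT DA P1 replicate 2. In the Efemp2 mean (4) it was 1 under cyclic loess, 1 without the 2 arrays of low Eln, and 0 with the array background as a covariate, without the 4 arrays or with the model's own arrays alone. With 1 array left out it was 1 to 9, 9 without Efemp2 WT AA E17.5 replicate 2, and 1 or 2 without any other except Efemp2 WT DA E17.5 replicate 2, Efemp2 WT P1 replicate 1 of AA or DA, Efemp2 KO DA E17.5 replicate 1 and Efemp2 KO DA P1 replicate 2. In the Lox mean (1) it was 0 with no filter, under loess or with arrays less their median, and 2 with its own arrays alone (0 to 1 with 1 array left out, 0 for 10 of 16 arrays).

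In the WT pair of DA and AA at Eln P1 (18), whose alternatives were added after the data were seen, it was 7 under loess, 5 with the covariate and 9 without the 2 arrays of low Eln (8 to 17, 8 without Eln WT DA P1 replicate 1). In the single Eln pairs (18) it was 9 under loess, 4 with the covariate, 0 without the 4 arrays, 11 without the 2 of low Eln and 6 with Efemp2 WT as the wild type (8 to 19 with 1 array left out, 8 without Eln WT DA P1 replicate 1). In the Efemp2 pairs (2) it was 1 under loess, 9 without the 2 arrays of low Eln and 0 with own arrays alone (0 to 9, 9 without Efemp2 WT AA E17.5 replicate 2 and 0 without Efemp2 KO AA P1 replicate 1). In the Lox pairs (0) it was 3 with the covariate (0 to 0). The stage difference in Eln (1) was 0 under loess, with arrays less their median, with the covariate, without the 4 arrays, without the 2 or with own arrays alone (0 to 9, 9 without Eln WT DA P1 replicate 2). That in Efemp2 (1) was 0 with no filter, under loess, less the median, without the 4 arrays or with own arrays alone, and 3 without the 2 (0 to 2). The location difference in Eln (3) was 1 under loess and 0 with the covariate or without the 4 arrays (0 to 8, 8 without Eln KO AA P1 replicate 2 or Eln KO DA P1 replicate 1). Without the 4 arrays the stage and location differences in Eln lack the DA P1 pair. Lox against Eln (1) was 0 under loess, less the median or without the 4 arrays, and 2 with trend and robust variances or own arrays alone (0 to 2). Efemp2 against Eln (0) gave 0 to 1, and WT location (10) gave 9 to 13 with 1 array left out. The stage difference in Lox, the location differences in Efemp2 and Lox, and Lox against Efemp2 (all 0) gave 0 to 0. The cause of these changes was not tested.

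Replicate numbers were checked between KO and WT of a pair only. Of 12 correlations of same-numbered arrays' deviations the lowest was -0.23, the median 0.049 and the highest 0.20, with 3 over 0.1. Same-numbered AA and DA arrays were not compared, so a pairing between them was not tested. With the replicate block, 2 members were called in the Efemp2 mean, 5 in the Eln location difference, and 0 in the stage differences of Eln and of Efemp2. Dim members such as Col4a3, Col4a4 and Lama1 had median signals of 4.54, 4.50 and 4.82, below the filter value of 4.94. Whether changes in them are compressed on this scale was not tested.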
